A study of Mus musculus with 20 samples.

Results

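The comparison described here is that of CD45- cells sorted from 66cl4 tumours with CD45- cells sorted from 67NR tumours. Its members are the 10 libraries whose sample titles name the CD45- gate, 5 per tumour, of 20 libraries in the series. The other 10 libraries hold the CD45+ cells of the same tumours and are used only as a reference for leukocyte transcripts. 66cl4 and 67NR are cell lines of the 4T1 mouse mammary cancer model, and 1000000 cells of a line were injected into the mammary fat pad of young adult, immunocompetent female BALB/cJ mice, the strain the lines come from. Neither the mice nor the lines carry an engineered allele that the labels name, and no treatment was given. All cells had passed dissociation, staining with a CD45 antibody and a viability dye, and sorting. Each tumour type rests on 1 cell line, so a difference between metastatic and non-metastatic tumours cannot be told apart from any other difference between these lines.

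CD45 is a phosphatase on the surface of leukocytes. A tumour cell suspension depleted of CD45+ cells holds mainly the cancer cells, together with fibroblasts, endothelial cells, pericytes and other host cells. Carcinoma cells can keep epithelial traits, such as keratin filaments, tight junctions and desmosomes, or lose them in an epithelial-mesenchymal transition (EMT) that is driven by transcription factors of the Snail, Twist and Zeb families. Mesenchymal cells, both cancer cells and fibroblasts, build the extracellular matrix from collagens, proteoglycans and glycoproteins, and secrete the growth factors and chemokines that vessels and leukocytes respond to. Because these are bulk libraries, fewer cells of a type and less RNA per cell cannot be told apart, and a transcript cannot be assigned to cancer or host cells.

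Total counts ranged from 13050039 to 28080314 in 66cl4 and from 16917109 to 22180348 in 67NR libraries. In the 2 groups, 12.6 to 15.8% and 12.9 to 21.4% of counts were mitochondrial. In a principal component analysis of variance-stabilised counts, component 1 took 83.5% of the variance and component 2 took 4.66%. All 66cl4 libraries scored between 75.9 and 86.0 on component 1, and all 67NR libraries between -82.2 and -77.9. The cell type labels of 66cl4 animals 5 and 6 contradict their titles, which decided the group here. Both libraries lay with the other 66cl4 CD45- libraries on component 1, at 77.7 and 86.0, and counts were repeated without them. Levels below are normalised counts, that is estimated counts divided by a size factor per library. Libraries are listed in the order of animals 3, 4, 5, 6 and 7 for 66cl4 and 1, 4, 5, 6 and 7 for 67NR, and animals with the same number are different mice.

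The gate was checked with Ptprc (ENSMUSG00000026395), the gene of CD45. Its normalised counts were 10.6, 26.2, 138, 40.4 and 161 in 66cl4 and 205, 473, 145, 332 and 178 in 67NR libraries. They ranged from 17697 to 20867 in 66cl4 and 15890.1 to 28449 in 67NR CD45+ libraries, far above every CD45- library. Within CD45- cells the groups overlapped, and Ptprc was lower in 66cl4 (log2 fold change -1.79 ± 0.66, adjusted p = 0.0361), a call that was lost without 66cl4 animals 5 and 6 (-1.96) and without any 1 of 66cl4 animals 4 and 6 and 67NR animals 1, 4 and 6 (-1.86 to -1.48). Over 56 leukocyte markers with at least 100 normalised counts in both CD45+ groups, the median CD45- level was 0.649% of the CD45+ level in 66cl4 and 1.92% in 67NR tumours.

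Genes were compared with edgeR's quasi-likelihood test and called at an adjusted p-value under 0.05 with an absolute log2 fold change over 1. Fold changes are given as 66cl4 minus 67NR on the log2 scale. The values after ± beside them are the absolute fold change divided by the square root of the test's F statistic. They restate the test and are not an independent measure of error. Where 1 group lies near 0 they can be smaller than the counting error alone. Of 14844 genes tested, 4774 were called, 32.2% of all. Higher expression in 66cl4 was called for 1965 genes, 13.2% of those tested, and lower expression for 2809, or 18.9%. The counts below are to be read against these shares. The 2 groups did not overlap in normalised counts for 7854 genes, or 52.9%. Of the called genes, 499 were higher and 800 lower by more than 3 on the log2 scale, and the median over all genes tested was -0.01. For 339 called genes every library of the lower group held 3 counts or fewer. For these a fold against 3 counts per library is given as a lower bound.

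**Figure D1:**
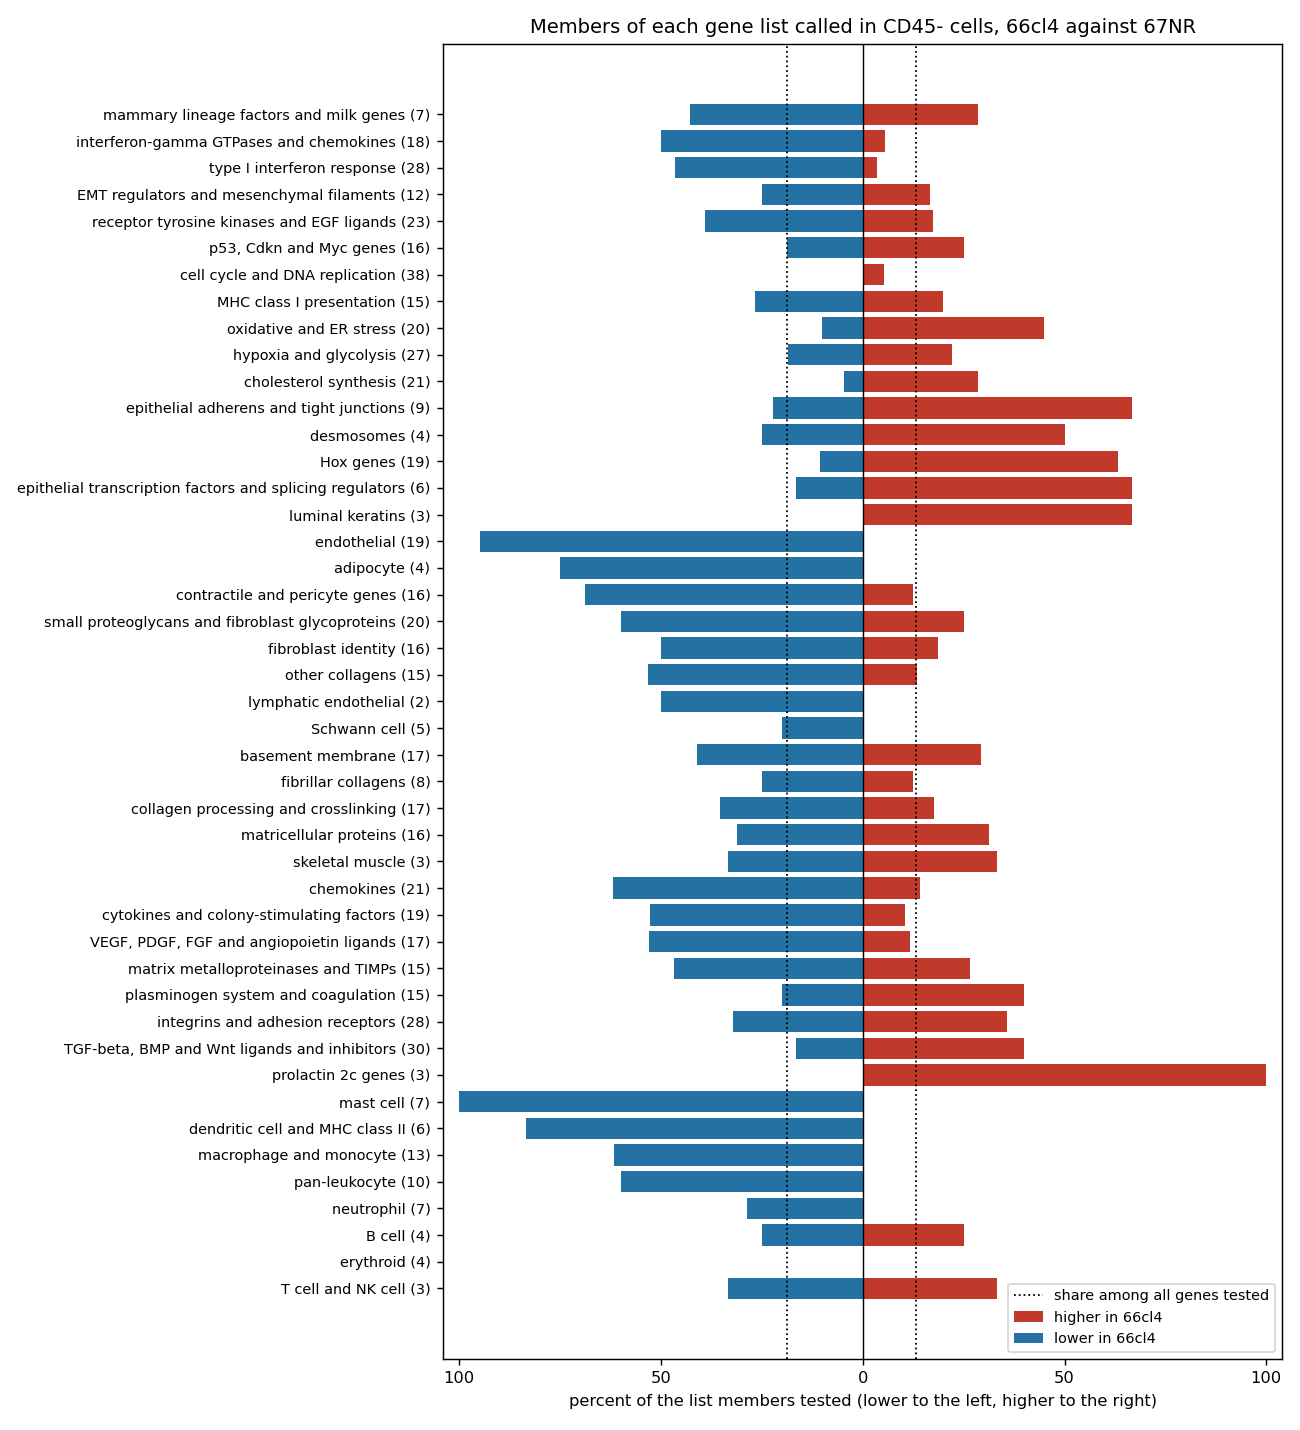
Share of the tested members of each gene list that was called higher (red, to the right) or lower (blue, to the left) in 66cl4 than in 67NR CD45- cells, in percent, with the number of members tested in brackets. Dotted lines mark the shares among all 14844 genes tested, 13.2% higher and 18.9% lower. Of the endothelial list 18 of 19 members were lower and of the mast cell list 7 of 7, while 12 of 19 Hox genes were higher.

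The largest changes were in genes that one tumour expressed and the other hardly did. Fgfbp1, which encodes a carrier that releases fibroblast growth factors from the matrix, had normalised counts of 1804, 1642, 2348, 2929.8 and 2581 in 66cl4 and 0, 0, 4.39, 1.56 and 2.05 in 67NR libraries. Sema3e, a secreted guidance cue of axons and vessels, had 4883, 4178, 4166, 4487 and 4281 in 66cl4 and 3.51, 3.75, 7.02, 6.25 and 8.18 in 67NR libraries. Neither group came near the other for either gene (log2 fold change 10.45 ± 0.36, adjusted p = 8.92e-11 for Fgfbp1 and log2 fold change 9.61 ± 0.16, adjusted p = 5.76e-14 for Sema3e). Zic2, a zinc finger transcription factor of the developing nervous system, had a mean of 532 in 66cl4 and 0.501 in 67NR, Igf2bp1, an RNA-binding protein of embryonic tissues, 517 against 0.613, and Inmt, a methyltransferase of small amines, 698 against 1.03. In the opposite direction Rab6b, a small GTPase of Golgi transport, had no count in any 66cl4 library and 254, 254, 204, 265 and 255 in 67NR libraries, at least 84.7-fold higher. Pax9, a paired box transcription factor of pharyngeal and skeletal development, had 0, 0, 0.832, 0 and 0 in 66cl4 and 367, 330.1, 270.4, 364 and 363 in 67NR libraries, at least 117-fold higher in 67NR. Adamtsl3, a secreted relative of the ADAMTS proteases (1.05 against 1244), Rgs20, a regulator of G protein signalling (0.166 against 288), and Mapk13, a p38 kinase (1.3 against 482), were also at or near 0 in 66cl4 libraries.

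The genes with the largest differences in absolute level were a different set. In 66cl4 they included Ogn and Thbs1, described with the matrix below, Mgp, Cp, Aldh3a1 and Ptgs2. Mgp, the matrix Gla protein that inhibits calcification, had normalised counts of 21754, 24294, 20753, 32829 and 20606 in 66cl4 and 162, 515, 537, 341 and 185 in 67NR libraries (log2 fold change 6.14 ± 0.39, adjusted p = 1.49e-07). Aldh3a1, a dehydrogenase that detoxifies aldehydes, had 18922, 20085, 23397, 19170.1 and 16655 in 66cl4 and 217, 428, 319, 464 and 398 in 67NR libraries (log2 fold change 5.78 ± 0.20, adjusted p = 3.11e-11). Both were separated by more than an order of magnitude in every pair of libraries. Ptgs2, the inducible cyclooxygenase that starts prostaglandin synthesis, had a mean of 17405 ± 3955 (SD, n = 5) in 66cl4 and 2038 ± 540.0 in 67NR (log2 fold change 3.13 ± 0.21, adjusted p = 3.89e-08). Cp, the copper-carrying ferroxidase ceruloplasmin (2.14), Ftl1, a ferritin subunit (1.34), and Cst3, an inhibitor of cysteine proteases (1.92), were also higher. Among the abundant transcripts that were lower in 66cl4 was Xist, the non-coding RNA that coats the inactive X chromosome. Its normalised counts were 419, 488, 743, 424 and 593 in 66cl4 and 40995, 34626, 28720.0, 32786 and 32216 in 67NR libraries, a difference of -5.95 ± 0.19 (adjusted p = 9.81e-12). The CD45+ cells of the same tumours had mean levels of 37593 and 33264, so the 66cl4 CD45- libraries stood below the other 3 groups. Lgals1, a galectin that is abundant in mesenchymal cells (-1.35), Lrp1, an endocytic receptor (-1.62), and Usp14, a deubiquitinase of the proteasome (-3.08), were lower too.

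Of the 3 luminal keratins tested, Krt8 and Krt18, which pair into the filaments of simple epithelia, were higher in 66cl4. Krt8 had normalised counts of 5354, 5484, 5575, 5465 and 4886 in 66cl4 and 44.8, 31.5, 70.2, 109 and 52.2 in 67NR libraries, and Krt18 989, 1248, 1093, 1300.2 and 1113 in 66cl4 and 49.1, 21, 43.9, 129 and 50.1 in 67NR libraries. The groups did not overlap (log2 fold change 6.47 ± 0.27, adjusted p = 9.41e-10 for Krt8 and log2 fold change 4.32 ± 0.38, adjusted p = 2.34e-06 for Krt18). Krt19 did not pass the test (22.7 against 60.0). Of 9 genes of adherens and tight junctions, 6 were higher and 2 lower, with a median of 1.24. The junction adaptors Cgnl1 and Cgn had the largest changes. Cgnl1 had 1463, 1365, 1339, 1370.4 and 1598 in 66cl4 and 26.3, 20.3, 24.6, 13.3 and 9.2 in 67NR libraries (log2 fold change 6.26 ± 0.19, adjusted p = 7.63e-12). F11r, the junctional adhesion molecule A (2.93), and Tjp1, the scaffold ZO-1 (1.35), were higher as well. Transcripts of the defining proteins of epithelial adhesion were nearly absent from both groups. Cdh1, the gene of E-cadherin, had 22.6, 18.1, 15, 24.4 and 24 in 66cl4 and 35.1, 27, 21.1, 64.1 and 17.4 in 67NR libraries, and Epcam had 5.31, 13.1, 2.5, 25.5 and 14 in 66cl4 and 35.1, 27.8, 20.2, 65.6 and 15.3 in 67NR libraries. Cdh1 did not pass the test (log2 fold change -0.65 ± 0.34, adjusted p = 0.109) and Epcam was lower in 66cl4 with overlapping groups (log2 fold change -1.41 ± 0.51, adjusted p = 0.0267). The Epcam call was lost without 66cl4 animal 3 (-1.23), 66cl4 animal 5 (-1.12) or 67NR animal 6 (-0.998), the last of which left 1 lower junction gene. Cldn1, a tight junction claudin, was lower as well (-3.30, with means of 22.7 against 235).

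Desmosome genes and epithelial transcription factors were called in both directions. Pkp2, a desmosomal plaque protein, had normalised counts of 426, 455, 460.3, 568 and 449 in 66cl4 and 15.8, 12, 9.66, 12.5 and 11.2 in 67NR libraries (log2 fold change 5.29 ± 0.15, adjusted p = 3.46e-12). Ppl, the plaque protein periplakin, was higher (3.64), whereas Jup, plakoglobin, was lower (-2.71, with means of 11 against 73.6). Of 6 epithelial transcription factors and splicing regulators, 4 were higher and 1 lower. Trp63, which encodes p63, the factor of basal epithelium, had 430.0, 398, 383, 478 and 386 in 66cl4 and 7.9, 13.5, 4.39, 13.3 and 5.11 in 67NR libraries (log2 fold change 5.53 ± 0.23, adjusted p = 8.69e-11). Klf5 (2.41) was higher and Grhl2, a regulator of Cdh1 (-2.38, with means of 7.75 against 44.1), was lower. With 66cl4 animal 3, 5, 6 or 7 left out 2 were lower, and without both animals 5 and 6, when 8 members passed the filter, 3 were. Among mammary lineage genes, Esr1, the oestrogen receptor alpha, had 1159, 1019, 1128, 1079 and 1129 in 66cl4 and 65.8, 89.3, 67.6, 93 and 99.2 in 67NR libraries (log2 fold change 3.76 ± 0.12, adjusted p = 1.23e-11). Gata3, a luminal factor, was also higher (1.72), while Sox9 (-2.07), Tbx3 (-4.66) and the casein gene Csn3 (-3.41) were lower. Of this list 3 members were lower, and 5 without 66cl4 animal 7 or 67NR animal 5.

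**Figure D2:**
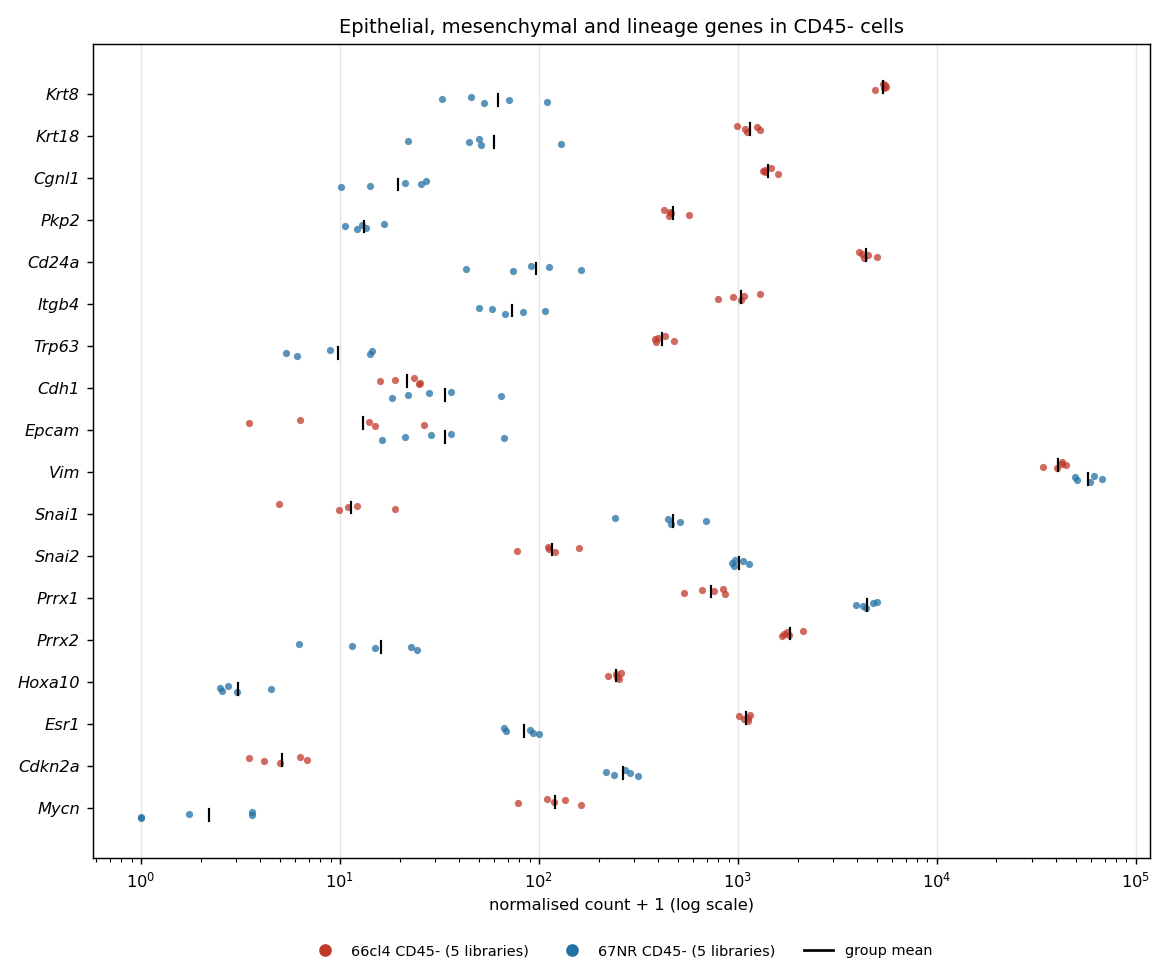
Normalised count plus 1 (log axis) of 18 epithelial, mesenchymal and lineage genes in each CD45- library, 5 libraries of 66cl4 (red) and 5 of 67NR tumours (blue), with group means as bars. Krt8, Krt18, Cgnl1, Pkp2 and Trp63 lay higher in all 66cl4 libraries, Snai1, Snai2 and Prrx1 lower, and Cdh1 and Epcam overlapped near the bottom of the range.

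Mesenchymal genes were expressed in both groups. Vim, the gene of the mesenchymal filament vimentin, had normalised counts of 42551, 42478, 44479.5, 34089.9 and 40468 in 66cl4 and 61475, 49666, 67527, 50887 and 58743 in 67NR libraries. The groups did not overlap, but the difference was small and was not called (log2 fold change -0.47 ± 0.12, adjusted p = 0.00312). Of 12 EMT regulators and filaments tested, 2 were higher and 3 lower. Snai1, the Snail repressor of E-cadherin, had 3.98, 11.2, 9.99, 18.1 and 8.98 in 66cl4 and 241, 445, 690.2, 514 and 463 in 67NR libraries (log2 fold change -5.42 ± 0.33, adjusted p = 2.18e-08), and Snai2, the Slug repressor, had 110.2, 158, 112, 76.5 and 119.8 in 66cl4 and 974, 1058, 936, 1144 and 957 in 67NR libraries (log2 fold change -3.09 ± 0.16, adjusted p = 6.94e-10). The lowest 67NR library was above the highest 66cl4 library in both. The paired-related homeobox genes Prrx1 and Prrx2 moved in opposite directions. Prrx1 had 839, 664, 763, 539.6 and 866 in 66cl4 and 5031, 4796, 3942, 4266 and 4416 in 67NR libraries (log2 fold change -2.58 ± 0.13, adjusted p = 5.93e-10), whereas Prrx2 had 2138, 1776, 1719, 1814 and 1678 in 66cl4 and 5.26, 10.5, 22, 14.1 and 23.5 in 67NR libraries (log2 fold change 6.97 ± 0.24, adjusted p = 3.10e-11). Foxc1, a forkhead factor, was higher (2.60). Twist1 (2695 against 2335), Zeb1 (940.0 against 1678) and Zeb2 (2139 against 2606) and Cdh2, N-cadherin (1359 against 2251), were not called.

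Hox genes, which set positional identity, were called higher for 12 of 19 tested and lower for 2, with a median of 1.75. Hoxa10 had normalised counts of 259, 244, 222, 245 and 253 in 66cl4 and 1.75, 1.5, 3.51, 1.56 and 2.05 in 67NR libraries (log2 fold change 6.86 ± 0.20, adjusted p = 4.22e-12). Of the Hoxb cluster, Hoxb3 (3.79), Hoxb6 (3.80) and Hoxb7 (4.13) were higher, and Hoxb4 was not called (0.41). The called decreases, Hoxa4 and Hoxc8, came from genes with means below 20 normalised counts and overlapping groups, and 1 of them was left without 66cl4 animal 6 or 67NR animal 1, 4 or 5.

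Few proliferation genes were called. Of 38 genes of the cell cycle and DNA replication, 2 were called higher and none lower, below the shares of 13.2% and 18.9% over all genes tested, and the median was 0.08. These were Birc5 (1.43), which encodes survivin, and the mitotic kinesin Kif11 (1.34). Mki67, the gene of the Ki-67 antigen, had means of 5387 against 5494. Single regulators differed widely. Cdkn2a, which encodes the tumour suppressors p16 and p19ARF, had normalised counts of 5.31, 2.49, 5.83, 3.19 and 3.99 in 66cl4 and 271, 216, 286, 238 and 314 in 67NR libraries (log2 fold change -5.97 ± 0.22, adjusted p = 3.44e-11). Mycn, the N-myc gene, had 109, 134, 119, 77.5 and 162 in 66cl4 and 2.63, 0.750, 2.63, 0 and 0 in 67NR libraries, at least 46.5-fold higher in 66cl4. The groups were far apart for both, whereas Myc itself (1375 against 1275) and Trp53, the p53 gene (1806 against 1933), were not called. The p53 targets Cdkn1a, the cell cycle inhibitor p21 (-2.07), and Ccng1 (-1.60) were lower in 66cl4, while Mdm2 (-0.95) and Bax (-0.93) stayed under the fold threshold. Ccnd2, a D-type cyclin (1.61), Rb1 (1.35) and the p18 inhibitor Cdkn2c (1.35) were higher.

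Of 20 genes of oxidative and endoplasmic reticulum stress, 9 were higher in 66cl4, 2 were lower and 9 were not called, with a median of 0.63. Nqo1, a quinone reductase, had normalised counts of 1461, 1498, 1826, 1783 and 1500.3 in 66cl4 and 16.7, 18, 19.3, 10.2 and 19.4 in 67NR libraries (log2 fold change 6.63 ± 0.16, adjusted p = 8.68e-13). Slc7a11, the cystine importer that feeds glutathione synthesis, had 679.6, 612, 926, 722 and 583 in 66cl4 and 69.3, 54.8, 39.5, 52.3 and 52.2 in 67NR libraries (log2 fold change 3.74 ± 0.16, adjusted p = 1.71e-10). All 66cl4 libraries were above all 67NR libraries for both. Txnrd1, thioredoxin reductase (1.78), Gclc, the catalytic subunit that limits glutathione synthesis (1.89), and Hmox1, haem oxygenase (1.94), were also higher, but the chaperones Hspa5 (-0.07) and Hsp90b1 (-0.82) were not called. Of 21 genes of cholesterol synthesis, 6 were higher and 1 lower, with a median of 0.71. Idi1 (2.15) and Cyp51 (1.51), enzymes early and late in the pathway, were among those higher. The number higher ran from 2 to 9 over the alternative settings, and the summed levels overlapped. The sums were 15365 and 15164 in 67NR animals 5 and 7 and 7892 to 9646 in the other 67NR libraries. In 66cl4 libraries they were 14984 to 22691.

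Of 27 hypoxia and glycolysis genes tested, 6 were higher and 5 lower. Pdk1, a mitochondrial kinase that inhibits pyruvate dehydrogenase, had normalised counts of 941, 905, 1089.7, 1049.5 and 858 in 66cl4 and 135, 78, 54.4, 89.8 and 49.1 in 67NR libraries (log2 fold change 3.60 ± 0.23, adjusted p = 2.20e-08). The phosphofructokinase Pfkp (3.27), the carbonic anhydrase Car9 (2.50) and Bnip3, a mitophagy receptor (2.06), were higher as well. Vegfa, the vascular endothelial growth factor, was lower, with 934, 1052, 1185, 1382 and 767 in 66cl4 and 2632, 2181, 2822, 2276 and 2156 in 67NR libraries (log2 fold change -1.15 ± 0.14, adjusted p = 8.17e-06). Adm, adrenomedullin (-1.52), and Ddit4, an inhibitor of mTOR signalling (-2.57), were lower too, and Slc2a1, the glucose carrier, was not called (0.89).

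Of 23 receptor tyrosine kinases and ligands of the EGF and related families, 4 were higher and 9 lower. Ereg, the EGF receptor ligand epiregulin, had normalised counts of 14.6, 11.8, 12.5, 4.25 and 7.99 in 66cl4 and 4015, 2864, 3554, 3345 and 2716 in 67NR libraries (log2 fold change -8.27 ± 0.21, adjusted p = 1.63e-12), and 67NR libraries were above 66cl4 libraries by more than 2 orders of magnitude in every pair. Btc, betacellulin, a ligand of the same receptor, was lower (-3.41), whereas Areg, amphiregulin, also a ligand of it, was higher (3.77, with means of 276 against 20.7). The receptor Egfr was lower in 66cl4, at a low level in both groups (29.9 against 75.9). Erbb3, a partner of HER2, was higher (1.82), and Erbb2 itself was not called (0.92). Hgf, the ligand of Met, was lower (-3.54, with means of 5.44 against 64.8), and Met was not called (1731 against 1835).

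Among interferon-response genes more were lower than higher in 66cl4. Genes of the type I response are switched on through the ISRE, a promoter element bound by STAT and IRF factors. Of 28 genes of the type I response tested, 13 were lower, 1 higher and 14 not called, with a median of -0.78, and of 18 GTPases and chemokines typical of interferon gamma, 9 were lower, 1 higher and 8 not called, with a median of -0.84. Ifit1, which binds foreign RNA caps, had normalised counts of 127, 157, 89.9, 142 and 105 in 66cl4 and 686, 969, 1170.5, 889 and 1748 in 67NR libraries (log2 fold change -3.10 ± 0.26, adjusted p = 4.72e-07). Cxcl10, a chemokine that attracts T cells, had 118, 183, 136, 151 and 159 in 66cl4 and 969, 812, 1679, 1184 and 1762 in 67NR libraries (log2 fold change -3.06 ± 0.23, adjusted p = 1.31e-07). The groups did not overlap in either. Ifit3 (-2.65), Isg15, a ubiquitin-like protein (-2.01), Irf7 (-1.68) and Cxcl9 (-3.32) were lower as well. Ifih1, the RNA sensor MDA5, was higher (2.87, with means of 365 against 50.6), and the transducers Stat2 (-0.55) and Irf9 (0.60) were not called. Leukocytes express these genes too, and their part in the result was not tested. In 67NR, CD45- levels of Ifit1 and Cxcl10 were 67.7% and 33.8% of those in CD45+ cells.

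The promoters of 4 of these genes that were lower in 66cl4 are shown for the element searched in this group. Each is the 250 bases before the transcription start in RefSeq (GRCm38.p6), 5′ to 3′ on the gene's strand, with capitals for matches, on either strand, to a pair of GAAA repeats with 2 bases of any kind between them (GAAA, NN, GAAA).
Ifit1 (chr19:34640639-34640888, plus strand): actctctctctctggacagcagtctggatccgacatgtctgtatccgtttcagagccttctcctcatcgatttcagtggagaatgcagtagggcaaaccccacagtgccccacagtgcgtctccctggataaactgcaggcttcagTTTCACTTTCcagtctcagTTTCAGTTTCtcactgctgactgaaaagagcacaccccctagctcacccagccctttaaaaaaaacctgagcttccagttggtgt
Ifit3 (chr19:34583279-34583528, plus strand): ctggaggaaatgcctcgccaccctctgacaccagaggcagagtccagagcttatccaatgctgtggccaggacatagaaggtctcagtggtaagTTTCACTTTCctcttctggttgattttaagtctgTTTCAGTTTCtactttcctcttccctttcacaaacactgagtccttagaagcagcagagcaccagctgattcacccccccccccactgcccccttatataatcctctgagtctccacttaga
Isg15 (chr4:156200819-156201068, minus strand): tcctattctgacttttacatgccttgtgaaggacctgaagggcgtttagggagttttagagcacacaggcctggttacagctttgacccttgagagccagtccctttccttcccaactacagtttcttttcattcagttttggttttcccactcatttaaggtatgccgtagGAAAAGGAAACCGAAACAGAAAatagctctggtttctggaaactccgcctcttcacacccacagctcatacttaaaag
Cxcl10 (chr5:92348890-92349139, minus strand): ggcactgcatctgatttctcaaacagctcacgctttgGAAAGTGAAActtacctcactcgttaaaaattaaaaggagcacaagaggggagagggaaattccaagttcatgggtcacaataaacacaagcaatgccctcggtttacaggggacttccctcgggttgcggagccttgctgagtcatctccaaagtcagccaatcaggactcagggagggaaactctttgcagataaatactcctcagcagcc
Ifit1 and Ifit3 held 2 matches each, Isg15 a run of 3 overlapping matches and Cxcl10 1 match. A match in this window was found for 936 of 27025 genes with a promoter in the table, or 3.46%. It was found for 9 of the 20 genes of the type I list that had a promoter there, and for 11 of 13 of the interferon gamma list. Of the genes with a promoter in the table that were called lower in 66cl4, 5 of 9 and 7 of 8 held a match. In the MHC class I list, described below, 1 of 13 genes held a match, B2m, which was 1 of 3 called lower. A match describes the letters only, and Ifih1 held none.

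**Figure D3:**
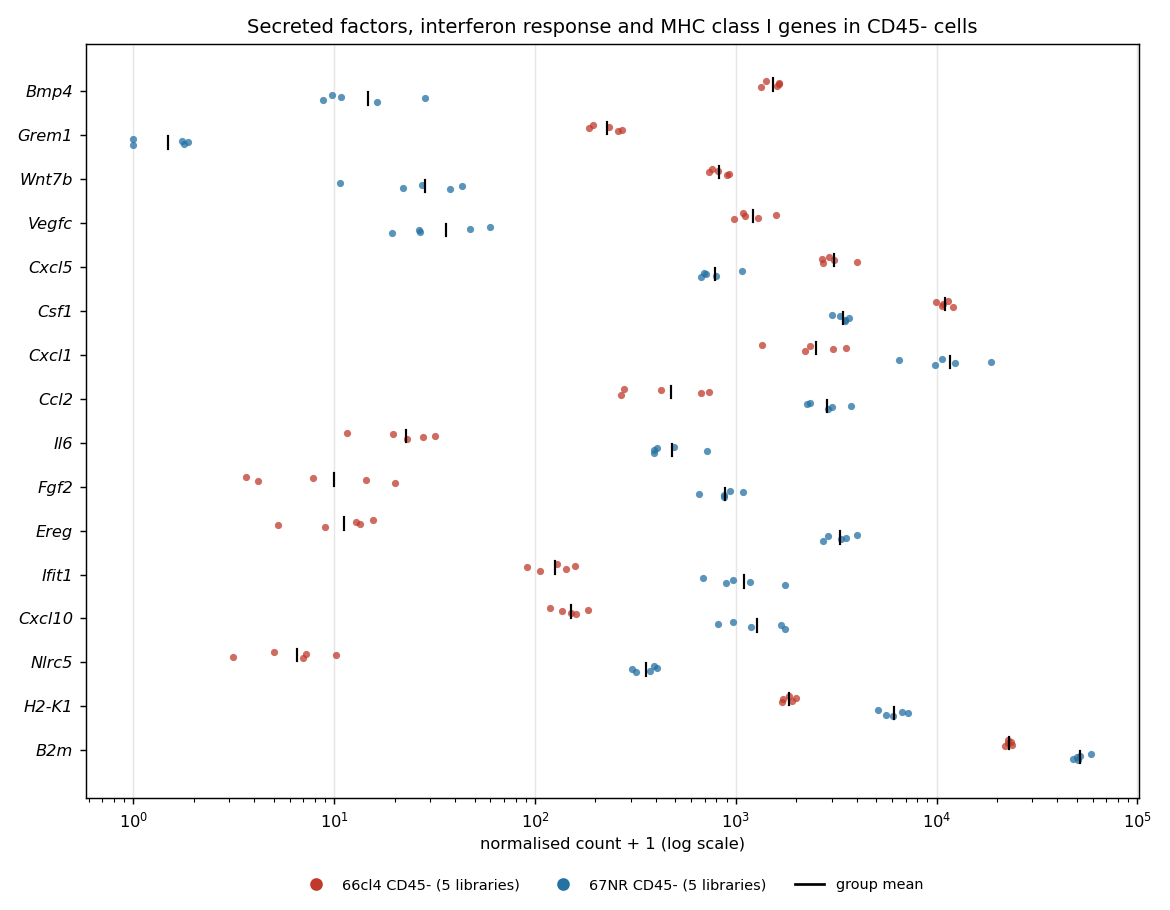
Normalised count plus 1 (log axis) of 16 genes of secreted factors, the interferon response and MHC class I in each CD45- library, 5 of 66cl4 (red) and 5 of 67NR tumours (blue), with group means as bars. Bmp4, Grem1, Wnt7b, Vegfc, Cxcl5 and Csf1 lay higher in all 66cl4 libraries and the other 10 genes lower.

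MHC class I molecules present peptides to T cells. Of 15 genes of this pathway, 3 were higher, 4 lower and 8 not called in 66cl4. Nlrc5, the transactivator of class I genes, had normalised counts of 3.98, 6.23, 9.16, 2.12 and 5.99 in 66cl4 and 390.5, 406, 303, 372 and 316 in 67NR libraries (log2 fold change -5.90 ± 0.22, adjusted p = 4.65e-11). The heavy chain gene H2-K1 had 1837, 2002, 1724, 1912 and 1703 in 66cl4 and 5132, 6711, 7204, 5582 and 6057 in 67NR libraries (log2 fold change -1.71 ± 0.10, adjusted p = 4.72e-09) and B2m, the light chain, 22657, 23484, 22602, 23785 and 21952 in 66cl4 and 58746, 51863, 49892, 47799 and 50353 in 67NR libraries (log2 fold change -1.14 ± 0.094, adjusted p = 1.07e-07). H2-D1, the other classical heavy chain, was lower too (-1.13), and no library of one group reached the other in these 4 genes. The immunoproteasome subunits Psmb8 (1.98) and Psmb10 (1.32) and the activator subunit Psme1 (1.41) were higher, while the third catalytic subunit, Psmb9 (0.68), and the other activator subunit, Psme2 (0.15), were not called. The peptide transporter genes Tap1 (-0.75) and Tap2 (-0.01) were not called.

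Transcripts of matrix genes were called in both directions. Of 20 genes of small proteoglycans and fibroblast glycoproteins, 12 were lower and 5 higher in 66cl4 (10 and 5 without 66cl4 animals 5 and 6). Ogn, the small leucine-rich proteoglycan osteoglycin, had normalised counts of 42835, 56222, 54217, 62963 and 56058 in 66cl4 and 1841, 1829, 2747, 2236 and 2781 in 67NR libraries (log2 fold change 4.61 ± 0.17, adjusted p = 3.66e-11). Omd, osteomodulin of the same family, had 873, 1248, 1165, 1609 and 1274 in 66cl4 and 29, 29.3, 39.5, 24.2 and 40.9 in 67NR libraries (log2 fold change 5.28 ± 0.19, adjusted p = 3.66e-11), and Aspn, asporin, was higher too (1.39). Every 66cl4 library was above every 67NR library for Ogn and Omd. The best-known members of the family went the other way, with -3.18 for Bgn (biglycan), -1.40 for Lum (lumican) and -1.02 for Dcn (decorin). Bgn had 3373, 2796, 1530.0, 1142 and 1602 in 66cl4 and 13790.5, 18572, 22833, 21247 and 20275 in 67NR libraries (adjusted p = 2.48e-06). Dpt, dermatopontin, which binds decorin and collagen, had 25.2, 36.8, 22.5, 32.9 and 60.9 in 66cl4 and 3507, 4215, 4390.4, 4498 and 4696 in 67NR libraries (log2 fold change -6.86 ± 0.22, adjusted p = 1.41e-11). Vcan, the large hyaluronan-binding proteoglycan versican, had 81, 87.9, 129.9, 72.2 and 188 in 66cl4 and 13296, 12469, 8272, 10952 and 10048 in 67NR libraries (log2 fold change -6.59 ± 0.28, adjusted p = 7.36e-10). These groups did not overlap, and Aebp1, a collagen-binding glycoprotein (-6.04), Efemp2 (-5.12) and Fbln1 (-4.05), both fibulins, were lower as well.

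Collagens changed by type. Of 8 fibrillar collagen genes, 1 was higher and 2 lower. The chains of collagen I were not called, with means of 1709.8 against 2671 for Col1a1 and 1195 against 940.3 for Col1a2. Col3a1 was lower (-1.27), a call lost without 66cl4 animals 5 and 6. Of 15 other collagens, 2 were higher and 8 lower. Col10a1, the network collagen of hypertrophic cartilage, had 621, 328, 417, 188 and 417 in 66cl4 and 0, 0.750, 0.878, 0 and 0 in 67NR libraries, at least 152-fold higher in 66cl4. Col12a1, which lies on the surface of collagen fibrils, was higher (log2 fold change 2.43 ± 0.22, adjusted p = 9.12e-07). Col6a5, a chain of the beaded-filament collagen VI, had 15.9, 13.1, 14.2, 21.2 and 12 in 66cl4 and 1434, 1179, 988, 1381 and 1101 in 67NR libraries (log2 fold change -6.30 ± 0.17, adjusted p = 2.24e-12). The groups were apart for all 3. Col6a3 was lower (-2.42) while Col6a1 (0.59) and Col6a2 (-0.07) were not called.

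Of 17 basement membrane genes, 5 were higher and 7 lower. Among those higher in 66cl4 were Col4a6 (5.55) and Col4a5 (1.16), which assemble together, and the laminin chain Lama5 (1.63). Lower were the common chains Col4a1 (-1.19) and Col4a2 (-1.70), the laminin chain Lama4 (-2.10), and the linkers Nid1 (-3.03) and Nid2 (-2.36). Endothelial cells make several of these, and the summed endothelial markers were lower in 66cl4, as given below. Their part in the result was not tested. Of 17 genes of collagen processing and crosslinking, 3 were higher and 6 lower. Pcolce, an enhancer of procollagen cleavage, was higher (1.19), and its relative Pcolce2 (-2.94) and the procollagen protease Adamts14 (-3.45) were lower. Lox, lysyl oxidase, was not called (-0.35).

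Matricellular proteins, which sit in the matrix and act on cells, were called in both directions, 5 higher and 5 lower of 16. Thbs1, thrombospondin, which inhibits vessel growth and activates TGF-beta, had normalised counts of 33859, 31897, 35861, 28279 and 28829 in 66cl4 and 2900.1, 1867, 2512, 3319 and 1805 in 67NR libraries (log2 fold change 3.71 ± 0.18, adjusted p = 4.10e-10). Ccn2, connective tissue growth factor, had 2664, 2036, 2605, 1813 and 1622 in 66cl4 and 96.5, 139, 52.7, 104 and 25.6 in 67NR libraries (log2 fold change 4.70 ± 0.37, adjusted p = 1.14e-06). The groups were apart in both, and Ccn4 (5.72) and Ccn1 (1.14) of the same family were higher as well, whereas Ccn3 was lower (-5.97, with means of 5.15 against 345). Spp1, osteopontin, had 146776, 126399.6, 139408, 166740.0 and 153276 in 66cl4 and 142189, 121918, 116341, 121971 and 133751 in 67NR libraries, and Fn1, fibronectin, 102169.9, 69806, 81978, 57809.8 and 78656 in 66cl4 and 78550.2, 106202, 89056, 103730.2 and 100757 in 67NR libraries. Neither was called (log2 fold change 0.23 ± 0.11, adjusted p = 0.0819 for Spp1 and log2 fold change -0.26 ± 0.15, adjusted p = 0.134 for Fn1), and the groups overlapped. Tnc, tenascin C, was lower (-1.80) and Postn, periostin, was not called (-0.26).

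**Figure D4:**
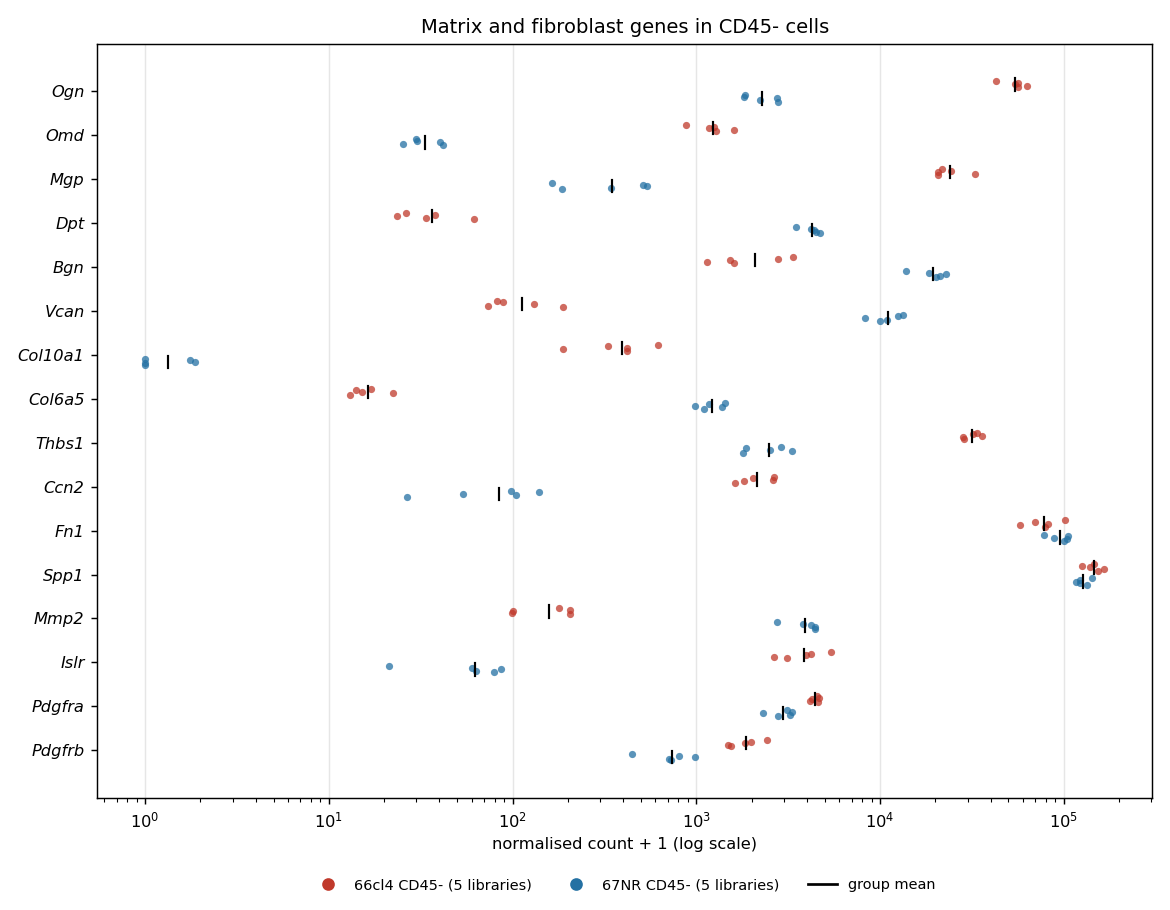
Normalised count plus 1 (log axis) of 16 matrix and fibroblast genes in each CD45- library, 5 of 66cl4 (red) and 5 of 67NR tumours (blue), with group means as bars. Ogn, Omd, Mgp, Col10a1, Thbs1, Ccn2 and Islr lay higher in all 66cl4 libraries, Dpt, Bgn, Vcan, Col6a5 and Mmp2 lower, and Fn1 and Spp1 overlapped.

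Of 15 matrix metalloproteinases and their inhibitors, 4 were higher and 7 lower. Mmp2, gelatinase A, had normalised counts of 178, 203, 99.1, 97.7 and 206 in 66cl4 and 2761, 3826, 4192, 4438 and 4425 in 67NR libraries (log2 fold change -4.61 ± 0.25, adjusted p = 8.44e-09), with a wide gap between the groups. Mmp19 (-4.36), Mmp3, stromelysin (-2.91), and the inhibitor Timp3 (-1.81) were lower. Mmp9, gelatinase B (1.72), Mmp11 (2.63) and Mmp13, a collagenase (2.66), were higher. Timp1 (0.04) and the membrane protease Mmp14 (-0.70) were not called. Of 15 genes of the plasminogen system and coagulation, 6 were higher and 3 lower. Thbd, thrombomodulin, which turns thrombin to an anticoagulant, had 17.3, 22.4, 31.6, 7.44 and 31.9 in 66cl4 and 1291, 1611, 1797, 1777 and 1796 in 67NR libraries (log2 fold change -6.15 ± 0.24, adjusted p = 1.67e-10), while F3, tissue factor, which starts coagulation, was higher (log2 fold change 2.99 ± 0.15, adjusted p = 6.31e-10). The plasminogen activators moved apart, with 1.50 for Plat and -1.93 for Plau.

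Of 16 fibroblast markers, 3 were higher and 8 lower, with a median of -1.29. Their summed normalised counts went the other way, with 14112, 13170.0, 12886, 10251 and 11246 in 66cl4 and 6911, 8607, 7273, 8209 and 8764 in 67NR libraries, and the groups of sums did not overlap. Most of the 66cl4 sums came from Pdgfra, Pdgfrb, Islr and Scara5, given next, so the sums follow a few abundant genes. The receptors that define fibroblasts were present in both groups, with means of 4441 against 2953 for Pdgfra, which was not called, and 1853 against 735 for Pdgfrb (log2 fold change 1.37 ± 0.19, adjusted p = 3.51e-05). Islr, a stromal membrane protein, had normalised counts of 5399, 4227, 3977, 2662 and 3118 in 66cl4 and 20.2, 59.3, 86.1, 62.5 and 78.7 in 67NR libraries (log2 fold change 6.02 ± 0.35, adjusted p = 4.92e-08), and Scara5, a ferritin receptor, 1339, 1754, 2386, 1645 and 1264 in 66cl4 and 36.9, 24.8, 16.7, 46.1 and 35.8 in 67NR libraries (log2 fold change 5.74 ± 0.26, adjusted p = 1.40e-09). All 66cl4 libraries were above all 67NR libraries for both. Il6, the cytokine of inflammatory fibroblasts, had 10.6, 18.7, 30.8, 26.6 and 22 in 66cl4 and 489.6, 403, 388, 719 and 389.7 in 67NR libraries (log2 fold change -4.40 ± 0.25, adjusted p = 3.47e-09). Fap, fibroblast activation protein (-3.44), Has2, a hyaluronan synthase (-3.53), and Ly6a, Sca-1 (-3.73), were lower in 66cl4. Of 16 contractile and pericyte genes, 11 were lower and 2 higher (8 and 2 without 66cl4 animals 5 and 6). Rgs5, a pericyte marker, had 484, 542, 712, 262 and 367 in 66cl4 and 692, 2874, 2221, 1328 and 722 in 67NR libraries (log2 fold change -1.69 ± 0.46, adjusted p = 0.00872), and these groups overlapped. Des, desmin, fell by 4.16, and Acta2, smooth muscle actin, by 1.04 on the log2 scale. Actg2 (2.67) and Cnn2 (1.62) went the other way. The summed normalised counts of this list overlapped, with 9276 to 10189 in 66cl4 and 7399 to 11112 in 67NR libraries.

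Ligands of the TGF-beta, BMP and Wnt families and their inhibitors were more often higher, with 12 of 30 higher and 5 lower. Bmp4, a bone morphogenetic protein, had normalised counts of 1412, 1648, 1639.9, 1594 and 1332 in 66cl4 and 8.77, 9.75, 27.2, 7.81 and 15.3 in 67NR libraries (log2 fold change 6.84 ± 0.24, adjusted p = 4.67e-11). Grem1, a secreted BMP antagonist, had 192, 232, 186, 271 and 258 in 66cl4 and 0, 0.750, 0.878, 0.781 and 0 in 67NR libraries, at least 88.1-fold higher in 66cl4. Wnt7b had 762, 819, 735, 919 and 903 in 66cl4 and 9.65, 26.3, 42.1, 21.1 and 36.8 in 67NR libraries (log2 fold change 4.97 ± 0.26, adjusted p = 2.86e-09). Each of these was higher in 5 of 5 libraries than in any 67NR library. Bmp5 (6.23), Wnt9a (5.86), Ltbp4, which holds latent TGF-beta (4.08), Tgfb1 (1.95) and Tgfb2 (3.09) were higher too. Gdf15, a stress-induced member of the superfamily, was lower (-6.57, with means of 0.924 against 115), and so were the BMP antagonist Chrd (-4.16) and the activin subunit Inhbb (-2.81).

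Vascular and fibroblast growth factors were more often lower, with 9 of 17 lower and 2 higher. Fgf2, basic fibroblast growth factor, had normalised counts of 2.65, 6.86, 13.3, 3.19 and 19 in 66cl4 and 929, 1079, 657, 874 and 872 in 67NR libraries (log2 fold change -6.53 ± 0.31, adjusted p = 1.68e-09). Vegfc, the growth factor of lymphatic vessels, had 1086, 1575, 1109.7, 1296 and 982 in 66cl4 and 58.8, 46.5, 25.5, 25.8 and 18.4 in 67NR libraries (log2 fold change 5.13 ± 0.27, adjusted p = 6.97e-09). The groups lay apart in opposite directions. Angpt1, the ligand that stabilises vessels through Tie2 (-3.51), Angpt2, its antagonist (-1.69), Angpt4 (-5.17), Angptl4 (-2.84) and Pdgfc (-1.94) were lower. Fgf7, the keratinocyte growth factor, was higher (2.37), and Vegfb (-0.17) and Vegfd (-0.57) were not called.

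Chemokines were lower for 13 and higher for 3 of 21 tested, with a median of -1.93. Cxcl1, a ligand of the neutrophil receptor Cxcr2, had normalised counts of 1349, 2353, 3553, 3054 and 2219 in 66cl4 and 10639, 6492, 18748, 12377 and 9812 in 67NR libraries (log2 fold change -2.18 ± 0.32, adjusted p = 1.06e-04). Cxcl5, a ligand of the same receptor, had 2927, 2687, 3081, 4004 and 2730.0 in 66cl4 and 1076, 693, 709, 799 and 669 in 67NR libraries (log2 fold change 2.00 ± 0.15, adjusted p = 4.31e-08), and Cxcl3, which also binds it, was higher too (3.85, with means of 784 against 54.3). The CXCR2 ligands thus changed in opposite directions. Ccl2, which attracts monocytes, had 276, 425, 732, 667 and 267 in 66cl4 and 2338, 2274, 3763, 3002 and 2873 in 67NR libraries (log2 fold change -2.55 ± 0.31, adjusted p = 2.55e-05), and Ccl7 (-2.47), Ccl8 (-4.02) and the T cell attractant Ccl5 (-3.99) were lower as well. Cxcl12, the ligand of Cxcr4, was not called (3616 against 2828). Leukocytes also make several of these, and the 10 pan-leukocyte genes summed to 711, 880.3, 2851, 1171 and 1975 in 66cl4 and 2249, 4647, 2339, 3565 and 2869.7 in 67NR libraries. Their part in the result was not tested for any chemokine. In 67NR the CD45- levels were 12.1% of the CD45+ levels for Ccl5, 4.71% for Ccl8, 479% for Cxcl1 and 45.2% for Ccl2.

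Of 19 cytokines and colony-stimulating factors, 10 were lower and 2 higher. Csf1, the growth factor of macrophages, had normalised counts of 11408, 9979, 10757, 10585 and 12078 in 66cl4 and 3021, 3317, 3672, 3512 and 3502 in 67NR libraries (log2 fold change 1.72 ± 0.088, adjusted p = 7.81e-10), and the lowest 66cl4 library was above the highest 67NR library. Il34, the other ligand of its receptor, was lower (-1.36, with means of 84.9 against 222). Il33, an alarmin (-1.98), Il18 (-1.38) and Il11 (-1.76) were lower, and Lif (-0.52) and Il1b (-1.10) were not called. The prolactin 2c genes, which encode proliferin, a placental hormone that promotes vessel growth, were higher for 3 of 3 tested. Prl2c3 had 10649, 24449.6, 34408, 40653 and 27319 in 66cl4 and 8.77, 15.8, 49.2, 44.5 and 51.1 in 67NR libraries (log2 fold change 9.71 ± 0.59, adjusted p = 2.02e-07), and Prl2c2 4022, 5952, 9337, 8976 and 7650.1 in 66cl4 and 3.51, 7.5, 9.66, 15.6 and 9.2 in 67NR libraries (log2 fold change 9.63 ± 0.35, adjusted p = 2.84e-10). The spread among 66cl4 libraries was wide, but all were above the 67NR libraries. The genes are near-identical, so the division of reads among them is uncertain.

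Of 28 integrins and adhesion receptors, 10 were higher and 9 lower. Cd24a, a surface glycoprotein of epithelial and immature cells, had normalised counts of 4060.1, 4240.2, 4516, 4996 and 4305 in 66cl4 and 90.4, 112, 42.1, 162 and 73.6 in 67NR libraries (log2 fold change 5.55 ± 0.28, adjusted p = 6.78e-09). Itgb4, the partner of alpha-6 in hemidesmosomes, had 1302, 1081, 951, 796 and 1036 in 66cl4 and 49.1, 57, 106, 82.8 and 66.5 in 67NR libraries (log2 fold change 3.87 ± 0.20, adjusted p = 1.51e-09), whereas Itga6 itself was lower (-1.78, with means of 701 against 2458). Both increases held for every pair of libraries. The collagen receptors Itga10 (3.70) and Itga1 (1.63) were higher and Itga2 was lower (-3.06). Itga5, the fibronectin receptor chain (-1.39), the syndecans Sdc2 (-1.48) and Sdc3 (-5.06) and L1cam (-5.04) were lower, and Cd44, the hyaluronan receptor, was not called (-0.78).

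Endothelial markers were lower in 66cl4 for 18 of 19 tested, with a median of -3.38, and none was higher. Their summed normalised counts were 1589, 1743, 1711, 1135 and 2183 in 66cl4 and 8282, 11507, 6673, 7097 and 6108 in 67NR libraries. Pecam1, the endothelial adhesion molecule CD31, had 49.1, 89.8, 82.4, 34 and 125 in 66cl4 and 935, 1428, 605, 656 and 345 in 67NR libraries (log2 fold change -3.33 ± 0.44, adjusted p = 8.57e-05), and Kdr, the main VEGF receptor, 5.31, 18.1, 15, 5.31 and 29.9 in 66cl4 and 300.1, 408, 105, 123 and 78.7 in 67NR libraries (log2 fold change -3.70 ± 0.60, adjusted p = 2.80e-04). All 67NR libraries were above all 66cl4 libraries, though they spread widely, with animal 4 highest and animal 7 lowest. Cdh5, VE-cadherin, was the exception, with 515, 524, 528, 444 and 776 in 66cl4 and 987, 1635, 692, 731 and 416 in 67NR libraries (log2 fold change -0.65 ± 0.32, adjusted p = 0.0942) and overlapping groups. The sums of the other 19 genes listed, 18 of them tested, had a ratio of 6.32 between 67NR and 66cl4 means, against 1.6 for Cdh5. Of the lymphatic markers Flt4 was lower (-3.64) and Lyve1 was not called (63.3 against 22.5). Of 4 adipocyte genes tested 3 were lower, among them the lipid chaperone Fabp4 (-4.17), and the defining markers Adipoq and Plin1 were too low to be tested. Among Schwann cell genes 1 of 5 was lower, or 2 without 66cl4 animal 7. None of 4 erythroid genes was called, but 1 library of each group stood far above the rest, and the sums were 5322, 76.1, 46.6, 49.9 and 41.9 in 66cl4 and 4810.3, 752, 459, 173 and 152 in 67NR libraries. Without 66cl4 animal 3, and with the animal number as a block, all 4 were lower.

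Among leukocyte markers that remained in the CD45- gate, those lower in 66cl4 were 6 of 10 pan-leukocyte, 8 of 13 macrophage and monocyte, 2 of 7 neutrophil and 5 of 6 dendritic cell and MHC class II genes, and none of these was higher. These counts depended on the setting and on single libraries. The pan-leukocyte count was 2 or 3 without any 1 of 66cl4 animals 3, 4 and 6 and 67NR animals 1, 4 and 6, 3 with total counts as library sizes or no filter, 2 with the animal number as a block and 0 in the test against a log2 fold change of 1. The macrophage count was 5 without 66cl4 animal 4 or 6 or 67NR animal 4 or with no filter, 2 with the block or in the test against a fold, and 12 without 66cl4 animals 5 and 6. The neutrophil count was 1 without any 1 of 66cl4 animals 3, 4 and 6 and 67NR animals 1 and 6, 6 without 66cl4 animal 5 and 5 without 66cl4 animals 5 and 6. The dendritic cell count was 2 with the block and 8 with all 20 libraries in the fit. Lyz2, the lysozyme of myeloid cells, had means of 1656 against 2191 and was not called. The CD45- sums of the pan-leukocyte genes were 0.697% and 1.81% of the CD45+ sums in 66cl4 and 67NR. Lymphocyte genes were called in both directions, 1 higher and 1 lower of 3 T and NK cell genes and 1 higher and 1 lower of 4 B cell genes. Eomes, a T-box factor of NK and T cells, and Cd79a, a component of the B cell receptor (2.16), were higher in 66cl4. The Cd79a call was lost with all 20 libraries in the fit. Ighm, an immunoglobulin heavy chain gene, was lower (-3.15). Eomes had normalised counts of 191, 200.1, 173, 191 and 193 in 66cl4 and 1.75, 6, 2.63, 8.59 and 2.05 in 67NR libraries (log2 fold change 5.44 ± 0.29, adjusted p = 1.10e-09). The 66cl4 libraries lay above the mean of the CD45+ cells of the same tumours, 169.8, while Cd3e, the T cell receptor component, was near 0 in both (3.46 against 11.5).

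All 7 mast cell genes tested were lower in 66cl4, with a median of -8.25, or -8.13 with genes at the limit of 3 counts set to their bound. Their sums were 2.65, 10.6, 42.5, 45.7 and 76.9 in 66cl4 and 580.0, 623, 6234, 7620.3 and 22616 in 67NR libraries. The 67NR libraries differed among themselves by more than an order of magnitude, with animals 1 and 4 low and animal 7 high. Mcpt4, a chymase, had 0, 1.25, 1.66, 5.31 and 15 in 66cl4 and 134, 147, 1503, 1868 and 5804 in 67NR libraries (log2 fold change -8.68 ± 1.62, adjusted p = 0.00135), and Cpa3, the mast cell carboxypeptidase, 0, 1.87, 2.5, 11.7 and 13 in 66cl4 and 96.5, 166, 1228, 1812 and 4736 in 67NR libraries (log2 fold change -8.13 ± 1.52, adjusted p = 0.00138). Animal 7 was highest and animal 1 lowest for both. In the CD45- gate of 67NR tumours the list had 27.3% of its mean CD45+ level, a share that rested on animal 7 and was 13.4% without it. By animal, in the order given above, the share was 2.46, 2.00, 20.02, 28.9 and 87.2%, against 1.71, 3.31, 1.37, 1.88 and 1.23% for the pan-leukocyte genes, so animals 1 and 4 lay near or below the pan-leukocyte shares and the other 3 above them. In 66cl4 tumours the mean share was 0.464%, against 0.697%. Kit, the receptor of stem cell factor, which mast cells carry, was lower in 66cl4 too (-2.95, with means of 25.4 against 205), and the part of mast cells in that difference was not tested.

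**Figure D5:**
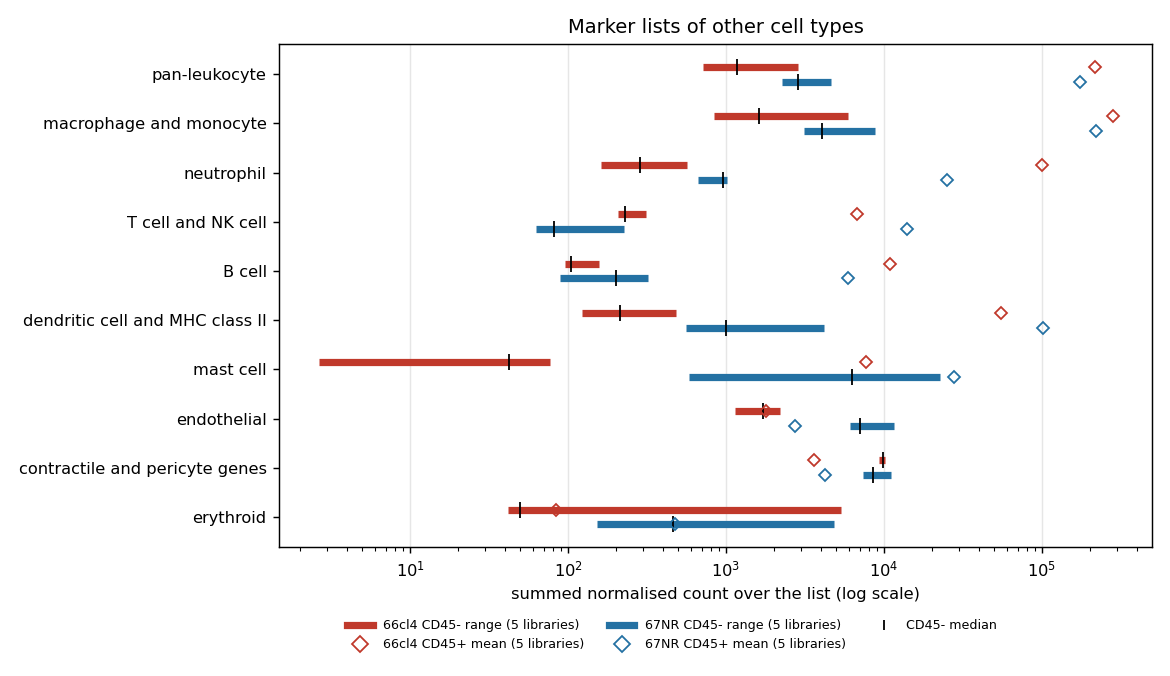
Summed normalised counts (log axis) of marker lists of cell types other than cancer cells. Bars span the 5 CD45- libraries of 66cl4 (red) and 67NR tumours (blue), ticks mark their medians, and diamonds mark the mean of the 5 CD45+ libraries of each tumour. Leukocyte lists lay far below their CD45+ levels, except mast cell genes in some 67NR libraries, and endothelial genes lay higher in 67NR.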

How the data were processed

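SENSE mRNA libraries were made from sorted cells of 10 tumours. The authors ran fastp, then Salmon 1.3.0 for transcripts and tximport for genes. The table they deposited holds estimated counts, not normalised, of 52783 genes. They name GRCh38, a human reference, although the identifiers are mouse genes, so the build is not settled and no coordinates are given except those of 4 promoters in the RefSeq table (GRCm38.p6). Symbols came from a reference list that held 51492 identifiers. Reads shared by similar genes are divided by the estimation, and strand use in counting was not given in the sources used here.

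Libraries were grouped by title. Estimated counts were rounded, which changed no value by more than 0.5. The 10 CD45- libraries were compared in R 4.3.3 with edgeR 4.0.16 (quasi-likelihood test, TMM, default filter by group at 10 counts per library and 15 in total, robust fit, Benjamini-Hochberg adjustment). Without the labels naming separate cultures, p-values measure the spread between these animals and libraries. Levels are counts divided by DESeq2 1.42.0 size factors over the 20 libraries. A count of 0 allows up to 3 counts in a library, which covers counting error only. Replicates differed by more than sampling noise, with a chi-square per degree of freedom of 13.5 to 111. On simulated counts of 14564 genes with 200 changed, the CD45- test recovered 188, and 2.08% of its calls were false. In the data 4774 of 14844 genes were called, and the performance of the test at such a share was not tested.

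The members, the 46 gene lists (819 genes, of which 627 could be tested) and the rule for named genes were chosen with earlier results of these data known. The rule takes the 12 largest changes per direction among called, non-overlapping genes with a mean of at least 100, the 10 largest differences of level per direction, up to 4 members and the most abundant member of each list, and Ptprc. Other list members named were picked after their values were seen. Lists are described by counts and medians, with no test of their own. Promoters came from RefSeq (GRCm38.p6). The results were repeated with the Wald test of DESeq2, RLE factors, total counts, no filter, at least 10 counts in 5 libraries, all 20 libraries in the fit, a test against a log2 fold change of 1, the animal number as a block, and libraries left out. Python 3.11.15 and matplotlib 3.10.9 drew the figures. Some list members are counted but not reported by name here.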

Additional observations from a re-analysis of the deposited data

Results flagged for a closer look

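With 5 libraries per group, a library was taken as standing apart when its gap to the nearest of the others was a large part of the group's range by Dixon's test. Of 145 groups examined, 6 held such a library, and chance gives about 1 in 20. In 67NR CD45- cells, animal 7 had a total count of 16917109, against 21199064 to 22180348 in the others, and animal 1 had 21.4% of mitochondrial counts, against 12.9 to 15.3%. Krt18 had 129 normalised counts in 67NR animal 6, against 21.0 to 50.1, still below every 66cl4 library. Rab6b had 204 normalised counts in 67NR animal 5, against 254 to 265. In 66cl4 CD45- cells, Pkp2 had 568 normalised counts in animal 6, against 426 to 460, and Cdh5 had 776 in animal 7, against 444 to 528.

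For 2 genes whose libraries are given above, the tumours differed in opposite directions in the 2 gates, with no overlap in either gate. Vcan was lower in 66cl4 CD45- cells (-6.59) but had a log2 ratio of mean levels of 2.11 in CD45+ cells, with means of 15406 in 66cl4 and 3579 in 67NR. Vegfa was lower in 66cl4 CD45- cells (-1.15) but had a log2 ratio of 2.01 in CD45+ cells, with means of 3673 and 913. The difference between the gates was not tested.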

How the results depend on the processing

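The count of 4774 called genes ranged from 3344 with a test against a log2 fold change of 1 to 6774 without a filter on low counts, and was 6349 with DESeq2. With RLE factors, total counts, a minimum of 10 counts in 5 libraries and all 20 libraries in the fit it was 4781, 4762, 4781 and 5293. Without 66cl4 animals 5 and 6 it was 5169, and with single libraries left out 4797 to 5070. Lower genes outnumbered higher ones in each. The animal numbers do not pair the tumours: the correlations of the deviations of same-numbered libraries were -0.181 to -0.0067, and with the number as a block 4766 genes were called, 4467 of them shared.

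The genes of the rule and some others named above were followed singly through the alternatives. Of the 209 of these that were called, none changed sign. The call was lost under at least 1 alternative for 21, 12 of them outside the test against a fold. Ptprc and Lcp1 lost it most often. Other named list members, among them Dcn, Acta2 and H2-D1 just over the fold threshold, were not followed singly. Ptprc was -1.71 with the block, -1.82 with total counts and -1.96 without 66cl4 animals 5 and 6. Among genes not called, Hoxa5 changed sign to 0.0283 without a filter, 0.129 with the block and 0.0585 without 66cl4 animals 5 and 6, and lay between -0.102 and 0.0671 with single libraries left out. Lyve1 was -0.0553 and Hbb-bs 0.262 without 66cl4 animals 5 and 6, and with single libraries left out they lay between -0.0566 and 1.85 and between -5.27 and 1.67. Of 92 counts of list members called in 1 direction, 61 stayed within 1.5 times under all 19 alternatives. Counts of leukocyte markers moved most. Depth limits the genes near 3 counts, where folds are bounds.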

Other observations

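The clustered protocadherins are cell surface adhesion molecules of neurons that are chosen from neighbouring promoters. Genes of the beta and gamma clusters were mostly called in opposite directions. This pattern was chosen after its values were seen. Of 21 beta genes tested, 14 were higher in 66cl4 and none lower, with a median log2 fold change of 2.95. Their sums lay between 3140 and 3571 normalised counts for 66cl4 libraries and between 1058 and 1529 for 67NR libraries. Of 21 gamma genes, 2 were higher and 13 lower, with a median of -1.28, and sums of 2285 to 3528 and 5285 to 7025. Of 12 alpha genes only 2 could be tested, and 2 were higher, with sums of 403 to 481 and 56.2 to 90.6. These genes are similar in sequence, so the division of reads among them is uncertain.

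Shares of called genes differed by chromosome. Lower expression in 66cl4 was called for 27.2% of the 570 genes tested on chromosome 15 and higher expression for 7.02%, with a median of -0.42. On chromosome 13 the shares were 13.6 and 23.3% of 604 genes, with a median of 0.40, and on chromosome 8 they were 12.6 and 19.1% of 760 genes, with a median of 0.39. On the X chromosome they were 21.5 and 23.6% of 461 genes. The median over all genes tested was -0.01.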
